A study of Mus musculus with 8 samples.

Results

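The 4 libraries described here were made from cells of newborn mouse brain. They are all of the postnatal day 0 (P0) libraries among the 8 of the series and were chosen by their age label alone. The mice were of strain C57BL/6J, and the labels name no mutation, transgene or treatment. Brains were taken whole and dissociated, and cells that carry GLAST were pulled out with magnetic beads bearing the ASCA-1 antibody. The labels name these cells radial glia. They do not say whether the 4 replicates, called P0 1 to P0 4 below, came from separate animals, litters or pools, so the spread between them may be biological or technical. With 1 condition there is nothing to test between groups: all that follows is a description of levels and of their differences between libraries.

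Radial glia are the stem cells of the developing ventricular wall, where they give rise to neurons and later to astrocytes and ependymal cells. GLAST, the product of Slc1a3, is a glutamate transporter on their membrane and is kept by astrocytes. A bead sort on a whole-brain suspension enriches such cells without being a pure isolate, so the RNA of neighbouring tissues (choroid plexus, meninges, vessels, microglia) is part of what can be read. The choroid plexus secretes the cerebrospinal fluid and its carrier proteins. The meninges are sheets of fibroblasts over the brain surface, and microglia are its resident macrophages.

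Total counts were 48701066 in P0 1, 30708719 in P0 2, 54615722 in P0 3 and 53916938 in P0 4. Of 23284 genes in the table, 13959 (59.95%) averaged at least 1 RPKM over the 4 libraries and 4022 had no read at P0. RPKM scales each count to the library total and to gene length, so it allows levels of genes of different length to be compared. CPM is the same without the length and was used to compare 1 gene between libraries. At these depths 3 counts correspond to between 0.0549 and 0.0977 CPM. P0 2 stood apart before any biology was read: it was the shallowest library, Rn45s (the 45S precursor of ribosomal RNA) took 1.222% of its counts, against 0.0672% to 0.126% in the others, and its short genes were low, as described further on.

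The cells carried the RNA of the antigen that the sort used. Slc1a3 had 54.2, 71.2, 78.8 and 76.8 RPKM in P0 1 to P0 4, rank 1043 of all genes. Every one of 24 radial glia markers averaged at least 1 RPKM, with a median of 21.01 RPKM, while the 13959 expressed genes had a median of 10.5 RPKM. The intermediate filament gene Vim had 787, 413, 449 and 495 RPKM and the fatty acid binding protein gene Fabp7 had 516, 215, 248 and 974 RPKM. Levels of the neural stem cell factor Sox2 were 7.57, 16.7, 19.6 and 18.1 RPKM. Markers of other cells stood higher: the median was 113 RPKM over 18 choroid plexus genes, 67.0 over 19 meningeal fibroblast genes and 42.7 over 18 microglia and macrophage genes. Summed over the choroid plexus list, the levels were 25104, 23054, 36767 and 54467 RPKM, against 1800, 1386, 1488 and 2196 RPKM over the radial glia list. In bulk RNA, fewer cells of a type and less RNA per cell cannot be told apart, so these sums give no share of cells. Of neuronal genes, 9 of 18 mature neuron markers and 9 of 18 neuroblast markers averaged at least 1 RPKM, a share not far from the 59.95% of all genes.

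Among the loci the authors class as microRNA, 281 of 609 averaged at least 1 RPKM, and 3 of them were among the 15 highest entries of the whole table. The mature products of the 5 highest loci, and of 4 loci inside the serotonin receptor gene Htr2c that are taken up below, are given here because their RPKM cannot be read as a level of microRNA. Sequences are those of RefSeq on GRCm38.p6, 5′ to 3′, with the seed (bases 2 to 8, which pairs with targets) in capitals. The 14 sequences have 14 different seeds.
mmu-miR-483-5p: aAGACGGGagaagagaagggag
mmu-miR-483-3p: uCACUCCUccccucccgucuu
mmu-miR-5114: aCUGGAGAcggaagcugcaaga
mmu-miR-675-5p: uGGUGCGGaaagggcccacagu
mmu-miR-675-3p: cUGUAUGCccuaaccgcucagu
mmu-miR-677-5p: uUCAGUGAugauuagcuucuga
mmu-miR-677-3p: gAAGCCAGaugccguuccugagaagg
mmu-miR-5121: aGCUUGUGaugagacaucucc
mmu-miR-764-5p: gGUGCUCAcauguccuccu
mmu-miR-764-3p: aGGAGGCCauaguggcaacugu
mmu-miR-1912-3p: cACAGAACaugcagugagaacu
mmu-miR-1264-3p: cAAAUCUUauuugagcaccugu
mmu-miR-1298-5p: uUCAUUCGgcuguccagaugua
mmu-miR-1298-3p: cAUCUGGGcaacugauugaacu

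The libraries were made with a kit for long polyadenylated RNA, which is not made to retain molecules of this size, and the counts at these loci are not a measure of mature microRNA. Of the 281 loci, 192 lay inside a RefSeq gene that is itself in the table. Mir483, in an intron of the growth factor gene Igf2 (chromosome 7, 149840829 to 149840901 on the minus strand of mm9), had 2541, 2506, 2082 and 1328 RPKM. Igf2 had 1018, 883, 668 and 564 RPKM, and both were lowest in P0 4. Mir675, in an exon of the imprinted noncoding RNA H19, had 2192, 906, 682 and 771 RPKM. H19 itself had 918, 382, 297 and 338 RPKM, so the locus and its host shared 1 high library, P0 1. Mir5121, inside the ribosomal protein gene Rpl13a, had 800, 270, 586 and 1152 RPKM. Its host had 1104, 343, 834 and 1467 RPKM, with P0 4 highest and P0 2 lowest in both. Mir5114 lies inside the desaturase gene Scd2, with 1389, 1293, 1288 and 856 RPKM, and Mir677 inside the ATP synthase gene Atp5b, with 987, 759, 624 and 747 RPKM.

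The loci inside Htr2c (chromosome X, 143397056 to 143631820 on the plus strand of mm9) had counts that moved as a block. Snora35, Mir764, Mir1912, Mir1264 and Mir1298 are between 86 and 119 bases long. Their counts ranged only from 85 to 89 in P0 1, 187 to 211 in P0 2, 121 to 124 in P0 3 and 116 to 121 in P0 4. Snora35, Mir764 and Mir1298 lie in 1 intron, from 143423872 to 143506927, and RefSeq on GRCm38.p6 places Mir1912 and the mature product of Mir1264 between Mir764 and Mir1298. Mir448, in another intron of the same gene, had 155, 205, 307 and 207 counts. These lay above the range of the first intron in P0 1, P0 3 and P0 4 and within it in P0 2. Outside Htr2c, of 4 pairs of small loci in the same intron of 1 host, 3 differed by at most 10% of their counts in every library, while of 7 pairs in different introns of 1 host none did. These loci were all under 150 bases long. The same-intron pairs outside Htr2c were all of microRNA loci, and the pairs in different introns all of small nucleolar RNA loci. In these pairs the place and the kind of locus cannot be told apart. Whether the reads lay on the locus or bridged the intron cannot be told from gene counts.

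**Figure D1:**
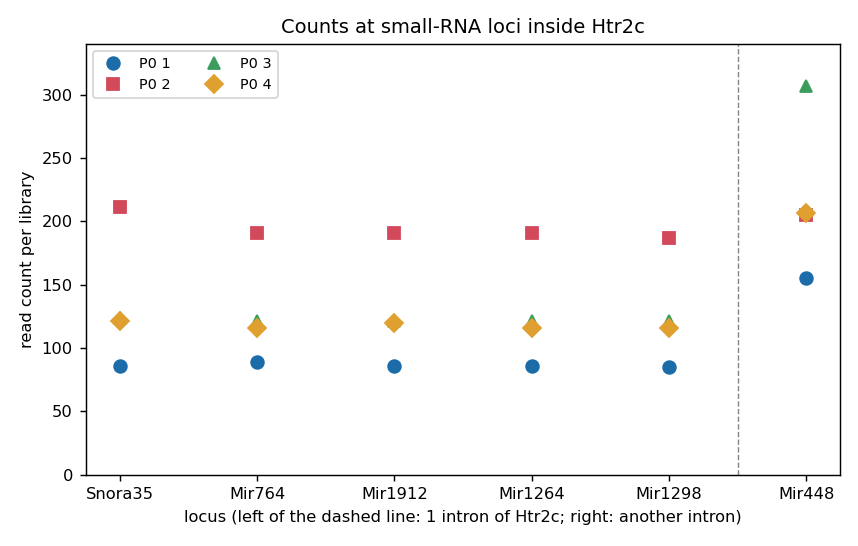
Read counts (y axis) at 6 small-RNA loci inside Htr2c (x axis) in the 4 P0 libraries (symbols). The 5 loci of 1 intron lie on nearly level lines, at 85 to 89 counts in P0 1 and 187 to 211 in P0 2. Mir448 in another intron has 155 in P0 1 and 205 in P0 2, the latter within the range of the 5.

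Length correction changed which genes headed the table. The 10 highest by RPKM were Ttr, Ptgds, Eef1a1, Mir483, Apoe, Snord32a, Snord43, Tpt1, Ftl1 and Mir5114. The 10 highest by CPM included Ttr, Eef1a1, Ptgds, Fn1, Enpp2, Col4a1, Rn45s, Igf2 and Psap. Only 3 genes were on both lists, and the median length was 850 bases on the first and 3817 on the second. Of the 50 highest genes by RPKM, 16 were under 150 bases long. Ttr, which encodes the thyroid hormone and retinol carrier transthyretin of the choroid plexus, led both with 22038, 18788, 32273 and 50535 RPKM, or 2.69%, 2.29%, 3.94% and 6.17% of all counts. Fibronectin (Fn1, 8312 bases) had rank 71 by RPKM and rank 4 by CPM, with 933, 617, 445 and 367 RPKM.

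The levels within the classes of the authors' table are given next, and the plot of the 3 highest genes of each class shows them side by side. The microRNA loci were described above, and the genes without a class are left out. The class named other was led by mean by Snord32a, with 2238, 688, 1833 and 2903 RPKM. This locus overlaps an exon of Rpl13a on the same strand, so its reads cannot be told from those of that gene. The classes are the authors' own and hold some unusual placements, such as the ribosomal protein gene Rpl7 among transcription regulators and fibronectin among enzymes. In 7 of 15 named classes 1 gene was highest in all 4 libraries. Counting the genes without a class as a class of their own, 38 of 80 places among the 5 highest were held by a gene that was in the top 5 of every library.

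**Figure D2:**
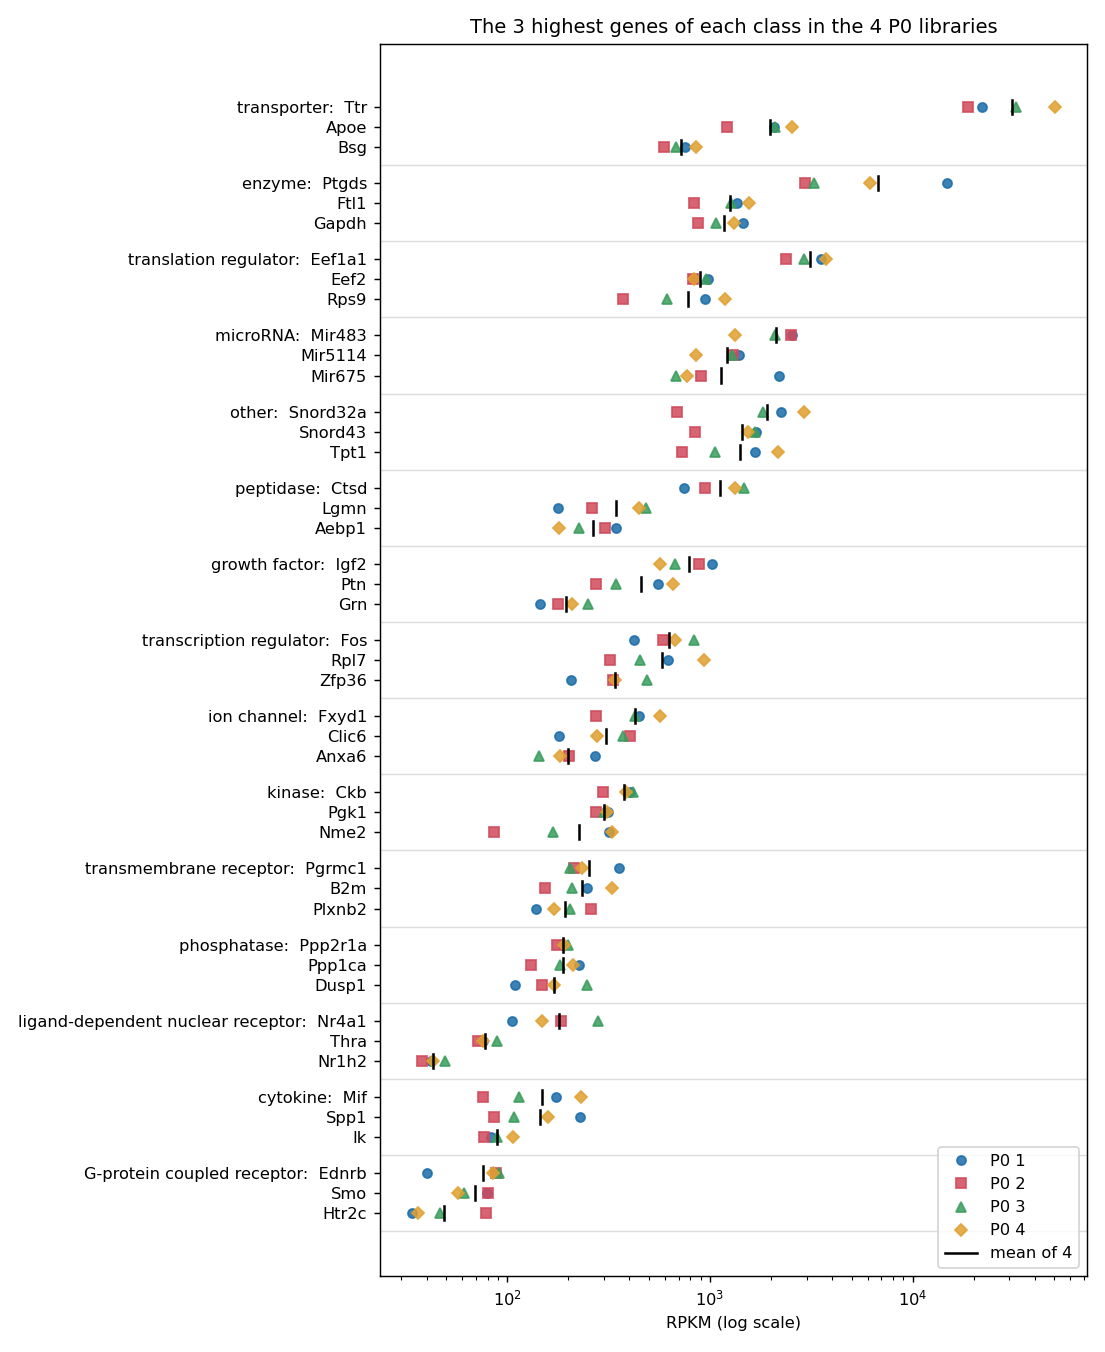
RPKM on a log scale (x axis) of the 3 highest genes of each of 15 classes (y axis) in the 4 P0 libraries (symbols), with the mean of the 4 as a bar. Ttr lies between 18788 and 50535 RPKM and no G-protein coupled receptor reaches 100.

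Transporters were led by Ttr, followed by Apoe, the lipid carrier of glia, with 2068, 1215, 2099 and 2525 RPKM. Ttr was above Apoe, and Apoe above the third transporter Bsg, in all 4 libraries. The fifth, Nnat, an imprinted membrane protein gene, had 1174, 322, 320 and 512 RPKM. It was high in P0 1 alone, at 2.29 times the next library.

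Enzymes were led by Ptgds (chromosome 2, 25322229 to 25325566 on the minus strand of mm9), the prostaglandin D synthase of the meninges and choroid plexus, with 14689, 2946, 3261 and 6140 RPKM. Its mean of 6759 ± 5478 RPKM (SD, n = 4) rested on P0 1. Enpp2, the choroid plexus enzyme autotaxin, had 850, 1390, 1424 and 930 RPKM. Its place relative to Gapdh, with 1453, 869, 1073 and 1309 RPKM, turned round between libraries: Gapdh was above Enpp2 in P0 1 and P0 4 only.

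Translation regulators were led in every library by Eef1a1, which brings aminoacyl-tRNA to the ribosome, with 3514, 2368, 2908 and 3717 RPKM. Eef2, the translocation factor, varied little, with 973, 821, 950 and 837 RPKM. The ribosomal protein genes in the class varied far more, as Rps14 with 703, 178, 435 and 1181 RPKM.

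Peptidases were led by lysosomal proteases. Ctsd had 747, 940, 1465 and 1325 RPKM and Lgmn had 179, 260, 482 and 448 RPKM. Both were higher in P0 3 and P0 4 than in the other two libraries.

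Growth factors were led by mean by Igf2, the fetal insulin-like growth factor of meninges and vessels. Ptn, a heparin-binding factor of glia, had 556, 273, 342 and 657 RPKM. It was above Igf2 in P0 4 only, and above the third gene, Grn, in every library. Nov had 275, 131, 147 and 114 RPKM and was above the next gene, Gas6, in 1 library only.

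Transcription regulators were led by mean by Fos, with 420, 587, 837 and 675 RPKM (mean 630 ± 174, SD, n = 4). Rpl7, with 622, 320, 452 and 929 RPKM, was above it in P0 1 and P0 4. Zfp36, which the class includes although its protein binds and destabilises messenger RNA, had 205, 331, 488 and 340 RPKM. Ctnnb1, which encodes β-catenin, was steadier, with 308, 317, 275 and 276 RPKM. Fos belongs to the immediate early genes, which cells switch on within minutes of a stimulus, dissociation included, and the class of ligand-dependent nuclear receptors was led by another of them. Nr4a1 had 105, 183, 279 and 149 RPKM, above the thyroid hormone receptor gene Thra with 75.4, 71.6, 88.4 and 75.8 RPKM in all 4 libraries. The retinoid X receptor genes Rxra and Rxrb came after Nr1h2, at 33.8 ± 8.28 and 31.3 ± 1.94 RPKM (SD, n = 4).

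Ion channels were led by Fxyd1, a small regulator of the sodium pump, with 444, 273, 428 and 568 RPKM. Next came Clic6, a chloride channel gene of the choroid plexus, with 181, 401, 371 and 278 RPKM. Clic6 was above Fxyd1 in P0 2, the library with the lowest levels of short genes (Fxyd1 is 712 bases long, Clic6 3743). The part of length in this order was not tested.

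Kinases were led by Ckb, brain creatine kinase, with 404, 296, 418 and 384 RPKM. Pgk1, a glycolytic enzyme, varied little, with 312, 275, 298 and 309 RPKM. Ndrg1, which the authors class here, had 279, 138, 101 and 100 RPKM and was 2.02 times as high in P0 1 as in the next library.

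Transmembrane receptors had no common leader. Pgrmc1, a heme-binding membrane protein gene, had 355, 214, 205 and 232 RPKM. B2m, the light chain of MHC class I, had 247, 154, 209 and 328 RPKM and Plxnb2, a semaphorin receptor, had 138, 260, 204 and 170 RPKM. Pgrmc1 was highest of the 3 in P0 1, Plxnb2 in P0 2 and B2m in P0 3 and P0 4. Phosphatases had no common leader either. The highest by mean, Ppp2r1a, the scaffold of protein phosphatase 2A, varied little, with 189, 177, 199 and 190 RPKM. Ppp1ca, a catalytic subunit of protein phosphatase 1, was above it in P0 1 and P0 4, and Dusp1 in P0 3. Dusp1, the dual-specificity phosphatase that switches off MAP kinases and another immediate early gene, had 109, 148, 248 and 171 RPKM.

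Cytokines were led by Mif, with 174, 75.9, 115 and 231 RPKM, and by osteopontin (Spp1), with 229, 85.4, 108 and 159 RPKM. Mif was above Spp1 in 2 of 4 libraries, and their order did not hold across libraries. The fifth, Ccl3, a chemokine of activated microglia, had 12, 24.1, 93 and 106 RPKM. P0 3 and P0 4 were both far above the other two libraries.

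G-protein coupled receptors were the sparsest class: 128 of 1647 averaged at least 1 RPKM and none reached 100. Ednrb, the endothelin receptor of radial glia and astrocytes, had 40.2, 87.8, 90.8 and 84.5 RPKM, low in P0 1 alone. Smo, the transducer of hedgehog signals, had 79.7, 79.8, 61 and 56.9 RPKM and was above Ednrb in P0 1 only. Htr2c, the serotonin receptor of the choroid plexus, had 33.8, 78.4, 46.6 and 36.4 RPKM, with P0 2 the only high library. Smo was above Htr2c in all 4.

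The classes differed in how much their genes varied between libraries. Of all 13959 expressed genes, 4234 (30.3%) spanned at least 2-fold from the lowest to the highest library in CPM. The share was 55.9% of expressed cytokines, 53.7% of microRNA loci, 49.3% of growth factors, 47.7% of G-protein coupled receptors and 44.8% of transmembrane receptors. It was 20.3% of kinases, 23% of transcription regulators and 24.7% of enzymes. In their lowest library the microRNA loci had a median of 19 counts, cytokines 252 and G-protein coupled receptors 402. The part of low counts in these shares was not tested. The count of genes that spanned 2-fold rested in part on 2 libraries: it was 2486 without P0 1 and 2445 without P0 2.

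One axis of difference followed gene length. Among expressed genes over 300 and up to 600 bases long, the median gene was at 1.14, 0.414, 0.757 and 1.6 times its own 4-library mean in P0 1 to P0 4. Among genes over 6000 bases it was at 0.871, 1.22, 1.03 and 0.837 times. In P0 2 short genes were low and long ones high, in P0 4 the reverse, and the other two lay between. Loci up to 300 bases had the same order of libraries with smaller shifts, at 0.994, 0.874, 0.95 and 1.05 times. All 78 expressed genes with a ribosomal protein symbol, of median length 693 bases, were highest in P0 4 and lowest in P0 2, against 22.4% of expressed genes highest in P0 4 and 31% lowest in P0 2. These genes took 3.329%, 1.205%, 2.235% and 4.852% of counts. Where each gene was set against the median of its length group, 77 of 78 were highest in P0 4 and 77 lowest in P0 2, against 22% and 27.5% of expressed genes. Of the 20 length groups, each with a like number of genes, the shortest pooled loci up to 300 bases with genes up to 600. In that group the median is not that of genes of like length. How much length dependence the adjustment left in these counts was not tested. RPKM divides by length but does not remove a length dependence that differs between libraries, and each level of a short gene above holds it.

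**Figure D3:**
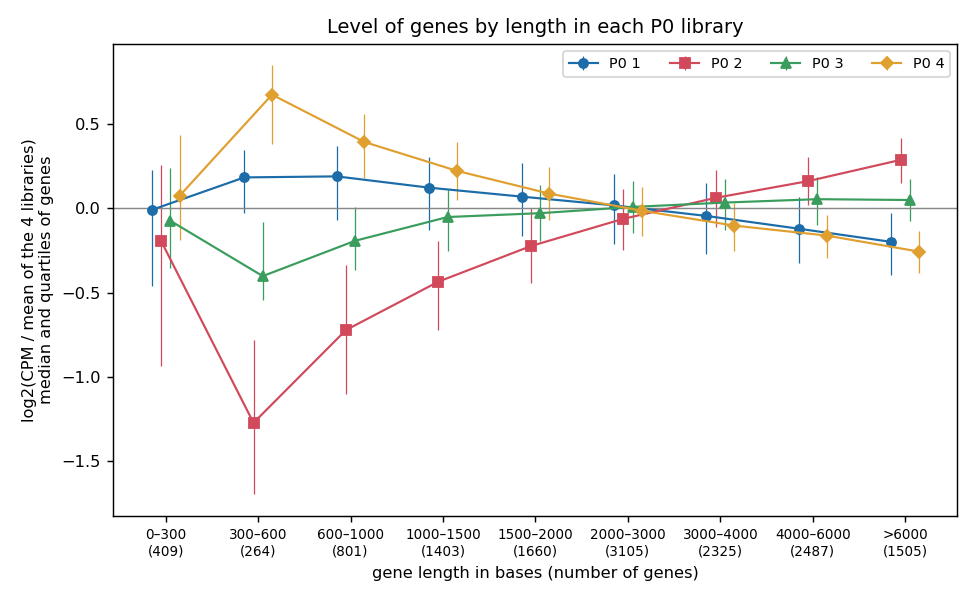
Median log2 ratio of CPM to the 4-library mean (y axis, with quartiles over genes) for expressed genes in 9 length groups (x axis) in each P0 library. Genes over 300 and up to 600 bases long are at −1.27 in P0 2 and 0.67 in P0 4, and genes over 6000 bases at 0.29 and −0.26.

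Genes that stood at least 2-fold apart in 1 library numbered 159 above the others in P0 1 (1.14% of expressed genes), 87 in P0 2 (0.623%), 25 in P0 3 (0.179%) and 91 in P0 4 (0.652%). Those at least 2-fold below the others numbered 378 in P0 1 (2.71%), 487 in P0 2 (3.49%), 47 in P0 3 (0.337%) and 18 in P0 4 (0.129%). Of the 487 low in P0 2, 60.8% were under 1000 bases long, against 10.6% of expressed genes. With the adjustment for length, added after seeing the data, the count was 209 (1.5%) in P0 2 and 392 (2.81%) in P0 1, and the genes that spanned 2-fold were 3450 (24.7%). Libraries also split in pairs: 92 genes (0.659%) were 2-fold higher in both P0 3 and P0 4 than in either other library, and 84 (0.602%) in both P0 1 and P0 4, of which 76.2% were under 1000 bases. The reverse of the first split, P0 1 and P0 2 high, held 39 genes (0.279%). P0 1 and P0 3 were the high pair in 13 genes (0.0931%), P0 2 and P0 3 in 13 (0.0931%) and P0 2 and P0 4 in 16 (0.115%). These counts depend on the number of libraries: genes above the others in 1 library numbered 362 in all 4 libraries, and 622, 702 and 645 without P0 1, P0 3 and P0 4, and genes below the others numbered 930, and 1500 without P0 3.

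The named groups of genes that moved together were read from 21 lists of cell type and process markers, each library being described by the median over the list of the log2 ratio of CPM to the 4-library mean. Over all expressed genes this median was −0.02, −0.01, 0.01 and −0.04 in P0 1 to P0 4. The plot of list levels shows every list.

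**Figure D4:**
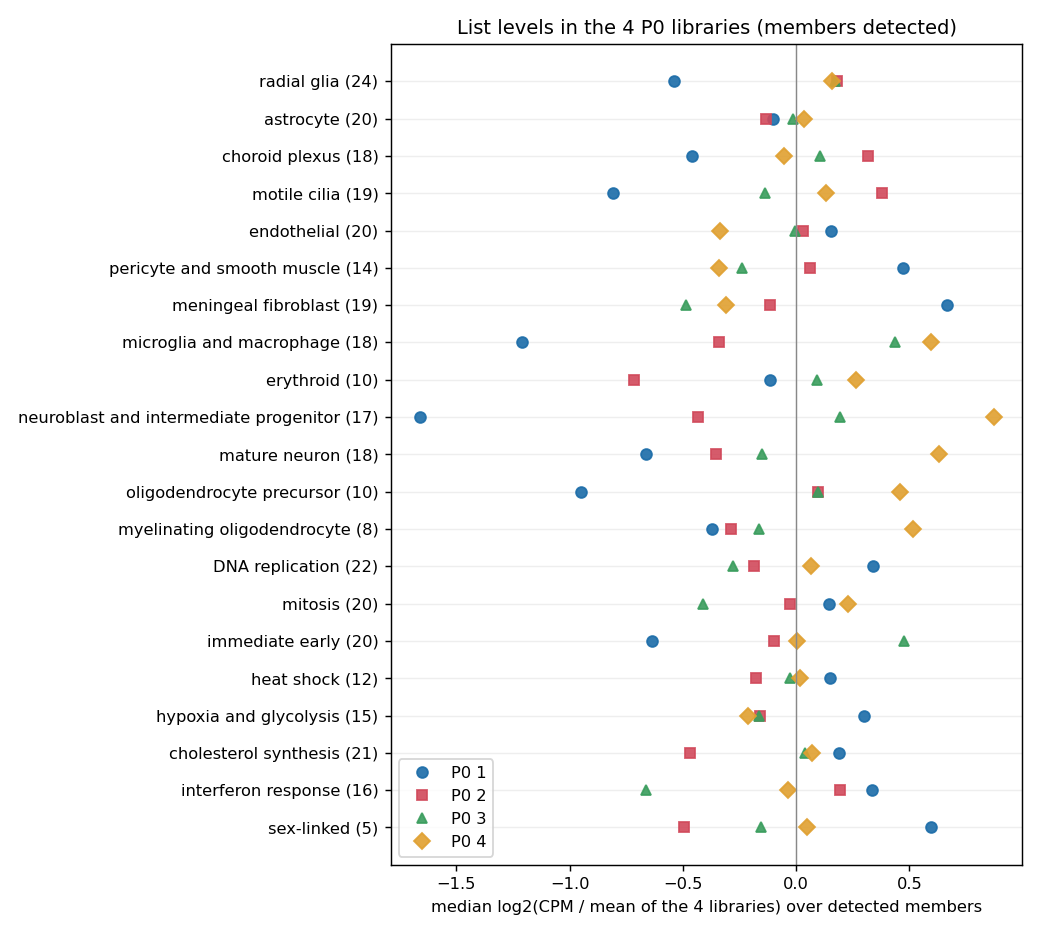
Median log2 ratio of CPM to the 4-library mean (x axis) over the detected members of 21 lists (y axis, number of members in brackets) in the 4 P0 libraries (symbols). P0 1 is far right for meningeal fibroblast genes (0.67) and far left for microglia and macrophage (−1.21) and neuroblast genes (−1.66).

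Meningeal fibroblast genes were highest in P0 1. Of 19 members, 17 had their highest level there, against 25.5% of all expressed genes. At least 2-fold above every other library were 6, against 1.14% of expressed genes. The list median was 1.59, 0.923, 0.714 and 0.807 times the mean. Crabp2, the retinoic acid carrier of the meninges, had 146, 29, 31.2 and 61.7 RPKM and Slc6a13, a GABA transporter of meningeal fibroblasts, had 335, 147, 98.9 and 137 RPKM. The forkhead factor gene Foxc2 had 49.1, 23.5, 18.7 and 13.3 RPKM and the collagen gene Col1a1 406, 286, 189 and 170 RPKM. P0 1 was alone at the top in each of the 4. Pdgfra and Tbx18 were the 2 exceptions, highest in P0 2. The genes whose profile over the 4 libraries lay nearest to that of Col1a1 were Pygm, Dmpk, Fn1, Flnc and Vcl, by Euclidean distance of log2 ratios among genes averaging at least 5 RPKM.

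Of 13 pericyte and smooth muscle genes, 8 were highest in P0 1, against 25.5% of expressed genes. Acta2, the member of the list that varied most, encodes smooth muscle actin and had 20.3, 2.54, 2.31 and 5.21 RPKM. Pdgfrb, the receptor gene of pericytes, was highest in P0 2 instead, with 47.4, 64.8, 59.2 and 42.3 RPKM, as were Abcc9, Kcnj8 and Notch3. Rbp4, the plasma retinol carrier, had 30.4, 3.44, 5.55 and 6.28 RPKM, the widest gap above the next library of any gene averaging 5 RPKM in P0 1 (4.84-fold). The tight junction gene of vessels, Cldn5, had 80.1, 35.1, 38.6 and 38.8 RPKM. Of 20 endothelial genes, Cldn5 included, 8 were highest in P0 1, against 25.5% of expressed genes. With the adjustment for length 11 were, with no adjusted share of all genes beside them. Lowest in P0 4 were 12, against 24.7% of expressed genes. The list median was 1.11, 1.02, 0.997 and 0.792 times the mean.

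Microglia and macrophage genes showed the opposite order. Of 18 members, 15 were lowest in P0 1, against 29.5% of expressed genes. Of these, 7 were so by at least 2-fold, against 2.71% of expressed genes. Highest in P0 3 or P0 4 were 16, where 21.8% and 22.4% of expressed genes were highest. The list median was 0.432, 0.789, 1.35 and 1.51 times the mean and its summed level 510, 749, 1419 and 1606 RPKM. C1qc, a complement component of microglia, had 56.3, 63.6, 163 and 192 RPKM. The signalling adaptor gene Tyrobp had 34.8, 31.4, 105 and 171 RPKM. Siglech, a microglial lectin gene, had 0.985, 4.22, 7.75 and 8.88 RPKM and the fractalkine receptor gene Cx3cr1 7.86, 25.8, 34.7 and 32.5 RPKM. For the complement and adaptor genes P0 1 and P0 2 were both low, while for Siglech and Cx3cr1 P0 1 alone was far below. C1qc is 1054 bases long and Siglech 2397. In P0 2 the median gene over 1000 and up to 1500 bases was at 0.74 times its mean. Over 2000 and up to 3000 bases it was at 0.958 times. The part of length in this contrast was not tested. Mrc1, a marker of macrophages at the brain borders, varied less, with 25, 37.6, 32.8 and 37.5 RPKM, and Tmem119 ran the other way, with 28.9, 12.9, 21.8 and 13 RPKM.

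The nearest profiles to Cx3cr1 were those of Itgam, Cd37, Brsk2, Cd180 and Mpeg1. Itgam, the integrin chain of myeloid cells, had 2.77, 9.14, 11.1 and 10.8 RPKM. Among the 92 genes that were 2-fold higher in both P0 3 and P0 4, the widest gaps were those of the chemokine gene Ccl4, Bcl2a1b and the chemokine gene Ccl3. Ccl4 had 6.97, 8.04, 40 and 63.6 RPKM, and its lower value among P0 3 and P0 4 was 4.97 times the higher of the other two libraries. The cytokine Il1a had 1.91, 7.89, 28 and 13.9 RPKM, with P0 3 highest.

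**Figure D5:**
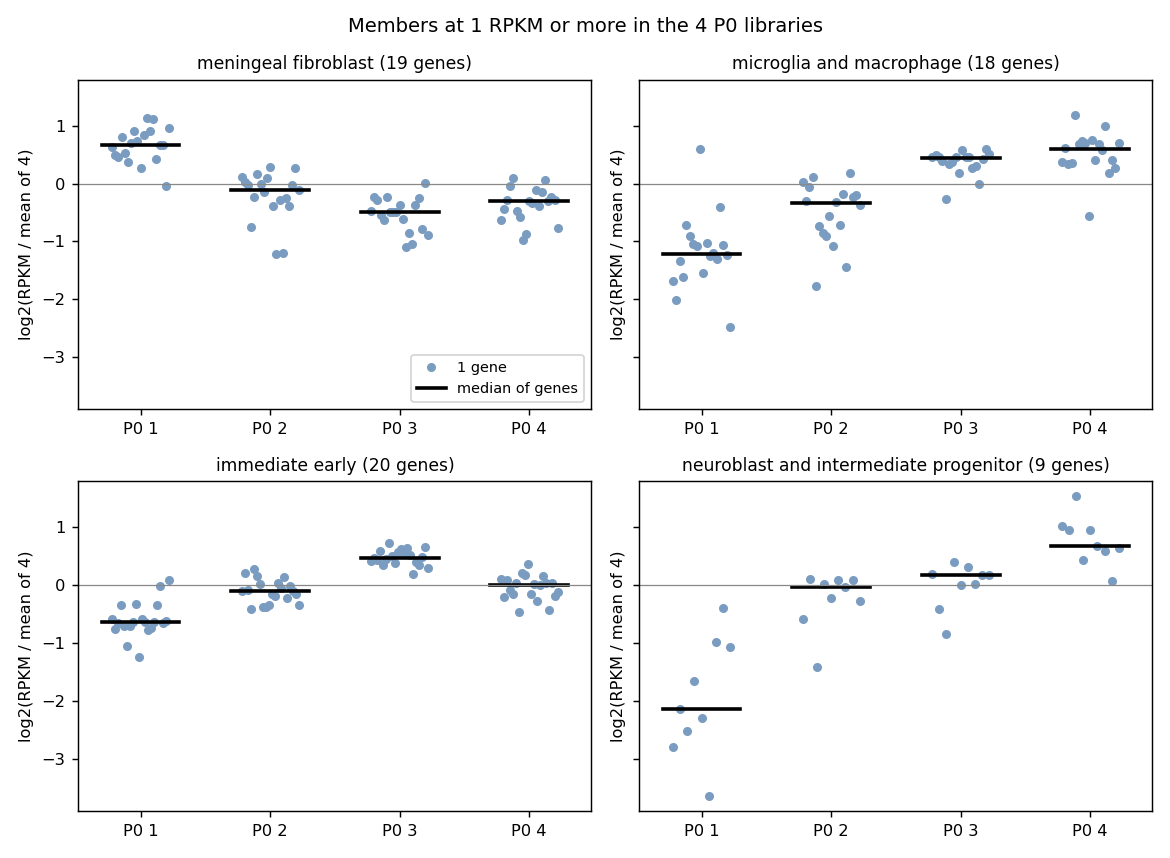
Log2 ratio of RPKM to the 4-library mean (y axis) for each member at 1 RPKM or more (points) of 4 lists in the 4 P0 libraries (x axis), with the median as a bar. Of 19 meningeal genes 17 are highest in P0 1, of 18 microglia and macrophage genes 15 are lowest there, and all 20 immediate early genes are highest in P0 3.

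Immediate early genes were high in every library and highest in P0 3. All 20 members averaged at least 1 RPKM, with a median of 101 RPKM, and all 20 had their highest level in P0 3, against 21.8% of expressed genes, though none was 2-fold above the next library. The list median was 0.644, 0.935, 1.39 and 1 times the mean. Of the 20, 16 were lowest in P0 1, against 29.5% of expressed genes. Jun had 118, 174, 250 and 196 RPKM and Atf3, a stress-induced partner of it, 23.8, 44.5, 83.6 and 72.9 RPKM. Egr1 had 178, 354, 371 and 261 RPKM, with P0 2 close to P0 3. Of 12 heat shock genes 3 were highest in P0 3, a share near that of all expressed genes, and the list median was between 0.885 and 1.11 times the mean in all 4 libraries. The profile nearest to Fos was that of Jun, followed by Cd163, Gpam, Plvap and Litaf. Since 163 genes averaging 5 RPKM lay within a distance of 0.3 of Fos, its neighbourhood was not small.

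Many immediate early genes are switched on through 2 short elements, the CArG box bound by serum response factor and the cyclic AMP response element (CRE) bound by CREB. The 250 bases before the start were searched for them, as CC, 6 bases of A or T, then GG, and as TGACGTCA. Both motifs read the same on the opposite strand, and the 2 cannot overlap. RefSeq promoters on GRCm38.p6 were matched for 16 of the 20 genes. A CArG box was found in 2 (Egr2 and Zfp36), and in 1.38% of 9604 expressed genes with a promoter. A CRE was found in 2 (Btg2 and Dusp1), and in 2.97% of the same genes. A match is a run of letters and no proof of binding. The promoter windows of Zfp36 and Dusp1 are printed 5′ to 3′ on the gene's strand with the motif in capitals, because both genes were among the 5 highest of their classes and highest in P0 3. In Zfp36 (minus strand, chr7:28379229-28379478) the box begins 58 bases before the start, and in Dusp1 (minus strand, chr17:26508473-26508722) the CRE begins 143 bases before it.
Zfp36: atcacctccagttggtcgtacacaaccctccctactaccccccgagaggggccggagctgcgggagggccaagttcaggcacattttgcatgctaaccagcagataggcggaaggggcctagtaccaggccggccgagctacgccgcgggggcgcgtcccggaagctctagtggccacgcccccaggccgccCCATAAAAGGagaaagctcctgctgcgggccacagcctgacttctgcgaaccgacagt
Dusp1: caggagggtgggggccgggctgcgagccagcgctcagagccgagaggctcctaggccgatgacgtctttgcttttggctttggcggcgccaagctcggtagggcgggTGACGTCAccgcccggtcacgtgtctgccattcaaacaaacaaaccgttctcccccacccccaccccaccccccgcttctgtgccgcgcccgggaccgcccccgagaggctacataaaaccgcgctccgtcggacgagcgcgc

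Genes of neuroblasts and intermediate progenitors, the offspring of radial glia, were mostly highest in P0 4. This held for 8 of the 9 members at 1 RPKM or more, against 22.4% of expressed genes. All 9 were lowest in P0 1, against 29.5%. Eomes, a factor of cortical intermediate progenitors, had 0.243, 1.12, 1.91 and 3.42 RPKM. Dlx2, a factor of inhibitory neuron precursors, had 0.108, 1.44, 1.67 and 2.15 RPKM and Dcx, a microtubule protein gene of migrating neuroblasts, 0.301, 1.43, 0.99 and 2.57 RPKM. P0 1 was far below the others in all 3. Over 17 detected members the median was 0.316, 0.74, 1.14 and 1.83 times the mean. The neuronal tubulin gene Tubb3 had 1.99, 2.93, 4.7 and 20.3 RPKM, the largest gap of any gene averaging 5 RPKM in P0 4 (4.32-fold). Npy, a neuropeptide gene, had 77.1, 27.8, 35.1 and 261 RPKM, again with P0 4 far above. No gene averaging 5 RPKM lay within a distance of 0.3 of Dcx.

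Radial glia genes were low in P0 1. Of 24 members, 18 had their lowest level there, against 29.5% of expressed genes, and the list median was 0.688, 1.13, 1.13 and 1.11 times the mean. Sox9, the gliogenic factor, had 11.2, 28.4, 30.9 and 17.1 RPKM. Pax6, a factor of cortical radial glia, had 1.15, 5.08, 5.4 and 5.67 RPKM, so that P0 1 was 4.40-fold below the next library. Vim was an exception and was highest in P0 1. Of 19 astrocyte genes, 7 were lowest in P0 1 and 7 were highest there, against 29.5% and 25.5% of expressed genes.

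Choroid plexus and ciliary genes had P0 1 as their lowest library too. Of 17 choroid plexus genes 14 were lowest there, and of 16 genes of motile cilia 12, against 29.5% of expressed genes. With the adjustment for length all 17 and 14 of the 16 were lowest there, with no adjusted share of all genes beside them. The cilia are those that ependymal and choroid plexus cells beat to move the cerebrospinal fluid. Foxj1, the factor that drives their formation, had 37.3, 98.4, 78.5 and 62.6 RPKM. P0 2 was highest for 10 of the 16 cilia genes, against 30.3% of expressed genes. Dynlrb2, a dynein light chain gene of 515 bases, had 19.3, 16.4, 25.7 and 76.2 RPKM and departed from the list in P0 4. The highest library of the choroid plexus genes differed between members. Without the adjustment 6 of the 17 were highest in P0 2, 6 in P0 3 and 5 in P0 4, against 30.3%, 21.8% and 22.4% of expressed genes. With it the counts were 9, 4 and 4, with no adjusted share of all genes beside them. Ttr was 2.69 times as high in P0 4 as in P0 2, whereas Kl, which encodes Klotho, had 7.89, 21.9, 9.44 and 8.48 RPKM with P0 2 alone high. Ttr is 1221 bases long. The median gene over 1000 and up to 1500 bases was at 0.74 times its mean in P0 2 and 1.17 in P0 4. The part of length in this contrast was not tested. The nearest profiles to Ttr were those of Cxcr4, Nkd2, 1500015O10Rik, Calml4 and Serpine2.

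Cell cycle genes were read from a list of DNA replication and one of mitosis. The replication list had a median of 1.26, 0.878, 0.824 and 1.05 times the mean and the mitosis list 1.11, 0.98, 0.751 and 1.17 times, so both were lowest in P0 3 and above the mean in P0 1 and P0 4. DNA replication genes were highest in P0 1 in 16 of 21, against 25.5% of expressed genes, and lowest in P0 3 in 10, against 14.7%. An example is Rrm2, a subunit of ribonucleotide reductase, with 25.8, 22.3, 11.6 and 17.6 RPKM. Mitotic genes were lowest in P0 3 in 16 of 20, and highest in P0 4 in 11, against 22.4% of expressed genes, and in P0 1 in 7. Ccnb2, a mitotic cyclin gene, had 21.5, 18.9, 9.61 and 20.5 RPKM, with P0 3 alone low, and Cdk1 had 16.4, 12.9, 13 and 20.5 RPKM.

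Interferon response genes were also low in P0 3. Of 16 members, 10 were lowest there, against 14.7% of expressed genes. None was highest there, against 21.8%. With the adjustment for length 2 were, with no adjusted share of all genes beside them. The list median was 1.26, 1.14, 0.632 and 0.975 times the mean. Isg15, the ubiquitin-like product that interferon induces, had 15.2, 6.46, 3.58 and 9.08 RPKM, and Ifit3 had 6.39, 5.88, 2.45 and 5.79 RPKM. Cholesterol synthesis genes were lowest in P0 2 in 18 of 21, against 31% of expressed genes. Of 14 glycolysis and hypoxia genes 10 were highest in P0 1, against 25.5% of expressed genes.

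Other genes also set P0 2 apart. Rn45s had 151, 2096, 216 and 115 RPKM, 9.70 times the next library. Lars2, the mitochondrial leucyl-tRNA synthetase gene, had 89.6, 790, 137 and 76 RPKM, 5.76 times the next. Their part in the low level of short genes in the same library was not tested.

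Sex-linked genes differed between the libraries as well. Xist, the RNA of the inactive X in females, had 6.72, 55.4, 26 and 12.6 RPKM, highest in P0 2. Eif2s3y, on the Y chromosome, had 27.1, 6.43, 16.1 and 22.1 RPKM, in the reverse order and with a 4.21-fold span. Other Y genes had the same order as Eif2s3y with narrower spans. Ddx3y had 18.9, 12.6, 15.5 and 16.4 RPKM (1.5-fold), and Kdm5d 7.96, 3.59, 3.86 and 4.8 RPKM (2.22-fold). Every library held reads of both Xist and Eif2s3y, in ratios that differed. The part of sex in the other differences was not tested.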

How the data were processed

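The authors deposited 1 table of 23284 genes with gene length, class, count, CPM and RPKM per library, per the file headers. Reads were handled with TopHat on mm9, per the submitters' processing notes. Which counter and gene models were used is not given in the sources used here. In the deposited values CPM was the count over the column total and RPKM was CPM per kilobase, to a relative difference under 1e-09. The kit did not mark strand, so reads of overlapping genes cannot be told apart. Levels of near-identical copies such as Hbb-b1 and Hbb-b2 are uncertain.

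Ranks used the mean RPKM of 4 libraries. A gene was called expressed at a mean of 1 RPKM or more. Patterns used log2 ratios of CPM to the 4-library mean, and list levels used members with at least 10 counts in all. No test between groups was made, since the libraries form 1 group. The calling code was tested on simulated data. Intervals are not given, and depth covers counting error only. In every pair of libraries counts differed beyond sampling noise (chi-square per degree of freedom of 130.8 or more). Named genes were the 10 highest by RPKM and by CPM, the 5 highest per class, those with the widest gaps per library or pair, 4 per list with its most variable member, and 5 nearest profiles per chosen gene; H19, Rpl13a, Slc1a3, Sox2, Sox9, Slc6a13, Foxc2, Cldn5, Tyrobp, Cx3cr1, Mrc1, Tmem119, Eomes, Dcx, Rrm2, Cdk1, Abcc9, Kcnj8, Notch3 and Kl were named after their values were seen. Members and lists were chosen with earlier results of these data known. Alternatives used edgeR 4.0.16 (TMM) and DESeq2 1.42.0 (size factors) as scalings of counts only. Python 3.11.15, pandas 2.3.3 and R 4.3.3 were used.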

Additional observations from a re-analysis of the deposited data

Results flagged for a closer look

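Each value here stood apart from the other 3 libraries: its gap to the nearest of them was a larger share of the whole range than Dixon’s critical value for 4 samples. Chance alone sets about 1 in 20 groups of 4 apart in this way, and 15 of 86 genes and 21 lists did so, but many of the genes were chosen for such gaps, so the count is not evidence of more.

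In P0 1, H19 was at 918.3 RPKM, with 381.8 in the nearest other library, and Mir675 inside it at 2192 RPKM, with 906.4. Acta2 was at 20.29 RPKM (nearest 5.21), Rbp4 at 30.36 (nearest 6.278) and Cldn5 at 80.13 (nearest 38.84). The summed level of the hypoxia and glycolysis list was 2511 RPKM in P0 1 and 1720 in the nearest library. Lower there than elsewhere were 2 genes: Ednrb was at 40.21 RPKM (nearest 84.47) and Pax6 at 1.155 (nearest 5.078).

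In P0 2, Rn45s was at 2096 RPKM (nearest 216), Lars2 at 790.2 (nearest 137.2) and Kl at 21.94 (nearest 9.441). In P0 3, Ifit3 was low at 2.447 RPKM (nearest 5.792). In P0 4, Tubb3 was at 20.28 RPKM (nearest 4.697), Dynlrb2 at 76.24 (nearest 25.74) and the summed level of the mature neuron list at 64.88 (nearest 32.83).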

How the results depend on the processing

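No paired analysis was possible because only 1 group is described. Of the 80 genes that are the 5 highest of their class by RPKM, 44 were also so by CPM. With a minimum mean of 0.1 RPKM in place of 1, 6746 genes spanned 2-fold (4234 as reported), 1084 stood above in 1 library (362), 2013 stood below (930) and 938 split in pairs (257). With a minimum of 10 RPKM the counts were 1622, 104, 271 and 65, and fewer genes were counted. A pseudocount of 0.5 CPM left 140 genes split in pairs. Leaving out each library in turn gave 2445 to 3694 genes that spanned 2-fold, 499 to 702 above and 762 to 1500 below. Under TMM and DESeq2 scaling these counts stayed within 1.5 times, and the 9 list levels tracked moved by less than the spread between libraries under every alternative run for them. Of all 84 levels (21 lists in 4 libraries), the direction was kept in 84 under DESeq2, 83 under TMM, 80 with members at 1 RPKM or more, 79 length-adjusted and 74 with the mean; with a library left out, 51 (without P0 1), 55 (P0 2), 56 (P0 3) and 52 (P0 4) of 63 kept it. Depth limits the loci with few counts, such as microRNA loci, whose lowest library had a median of 19 counts.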
